A study of Homo sapiens with 12 samples.

Results

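The small nuclear RNA (snRNA) and small nucleolar RNA (snoRNA) genes described here are 80 genes: 38 annotated as snRNA and 42 as snoRNA. They were chosen by their level in the deposited FPKM table (fragments per kilobase of transcript, scaled for library depth), as the rows of these biotypes with the highest mean over all 12 libraries, out of 3373 such rows (1916 snRNA and 1457 snoRNA) among 57773 genes. The last gene inside was a U13 snoRNA (ENSG00000239063) with a mean of 3.41 FPKM, and the next, SNORD67, had 3.24 FPKM. A gene that is high in 1 group of libraries can enter through such a mean, so the levels chose the members and are given as a description. By the mean of the 4 DMSO libraries alone, 54 of the 80 would have been chosen (20 snRNA and 34 snoRNA).

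Polyadenylated RNA was sequenced from U87, an established human glioblastoma cell line, in a parental form and in a form described in the labels as JQ1-resistant. Each form was kept for 24 h in DMSO (the solvent), in 1000 nM JQ1 or in 1000 nM dBET6, with 2 libraries in each of the 6 groups. JQ1 occupies the bromodomains of the BET proteins, which bind acetylated chromatin and aid transcription by RNA polymerase II. dBET6 carries a JQ1-derived ligand to the cereblon ubiquitin ligase, so that BET proteins are degraded. How the resistant line was derived, whether it is 1 clone and whether replicates were separate cultures is not given in the sources used here. P-values therefore measure the spread between these libraries, which may be technical. In such bulk samples, fewer cells of a kind and less RNA per cell cannot be told apart.

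snRNAs are the RNA cores of the splicing machinery: U1 and U2 recognise the ends of introns, U4, U5 and U6 join as a tri-snRNP, U4atac serves the minor spliceosome, and U7 trims histone mRNA. Most are made by RNA polymerase II from short genes of their own and are cleaved by the Integrator complex, whereas U6 is made by RNA polymerase III. snoRNAs guide chemical modification of ribosomal RNA and snRNA, box C/D types 2′-O-methylation and box H/ACA types pseudouridylation. Most human snoRNAs are cut from introns of host genes. Mature snRNAs and snoRNAs normally have no polyA tail, so a polyA library holds only a trace of them, and the abundance of the RNA in the cell cannot be read from these values.

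The sequences of the members whose values changed most, or that show the shared motifs, are from GENCODE release 29 (build GRCh38), matched by transcript identifier. Capitals mark the Sm-type letters ATTTNTG in snRNAs. In box C/D snoRNAs they mark the C box TGATGA within the first 25 bases and the D box CTGA within the last 20. A match of letters alone does not show a working site, and this holds for the U6 member RNU6-450P too. RNU7-111P held no ATTTNTG letters. SNORA71C, an H/ACA snoRNA, was searched for ACA exactly 3 bases from the end and held none there, though its sequence ends in ACA. Both have no capitals, which does not show that a motif is absent. Among the sequences shown, RNVU1-6 lies at chr1:146052081-146052244 (minus strand), RNU6-450P at chr17:59847438-59847544 (minus) and RNU7-111P at chr15:89897576-89897637 (plus), each outside any gene on the same strand. RNU2-2P lies at chr11:62841619-62841809 (minus) and the SNORD63 pair at chr5:138561043-138561110 and chr5:138558970-138559039 (minus). The first 6 are snRNAs or their variants, shown because they rose or fell with a compound or differed between the lines.
RNU2-2P: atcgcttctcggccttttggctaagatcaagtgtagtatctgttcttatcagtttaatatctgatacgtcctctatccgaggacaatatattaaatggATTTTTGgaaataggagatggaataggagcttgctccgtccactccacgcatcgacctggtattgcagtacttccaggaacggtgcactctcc
RNU1-28P: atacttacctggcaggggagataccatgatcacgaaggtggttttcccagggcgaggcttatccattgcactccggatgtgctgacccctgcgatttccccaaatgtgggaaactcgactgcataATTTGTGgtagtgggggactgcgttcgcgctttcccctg
RNVU1-6: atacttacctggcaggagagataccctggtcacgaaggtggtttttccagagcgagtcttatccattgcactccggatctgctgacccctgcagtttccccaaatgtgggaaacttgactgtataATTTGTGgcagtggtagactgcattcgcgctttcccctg
RNU4-2: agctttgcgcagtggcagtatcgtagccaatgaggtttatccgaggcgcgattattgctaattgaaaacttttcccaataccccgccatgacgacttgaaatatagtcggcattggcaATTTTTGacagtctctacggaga
RNU6-450P: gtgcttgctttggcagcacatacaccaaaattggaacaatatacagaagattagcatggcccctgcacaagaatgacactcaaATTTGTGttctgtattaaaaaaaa
RNU7-111P: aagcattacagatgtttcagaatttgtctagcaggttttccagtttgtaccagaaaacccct
The next 8 are snoRNAs that rose with dBET6 (the SNORD63 pair), rose with JQ1 (SNORD12, SNORD12B, SNORD99, SNORD100 and SNORD104) or fell with dBET6 (SNORA71C).
SNORD63 (ENSG00000206989): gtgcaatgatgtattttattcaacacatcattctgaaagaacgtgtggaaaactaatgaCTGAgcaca
SNORD63 (ENSG00000222937): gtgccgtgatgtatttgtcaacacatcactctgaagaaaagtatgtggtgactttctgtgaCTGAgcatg
SNORD12: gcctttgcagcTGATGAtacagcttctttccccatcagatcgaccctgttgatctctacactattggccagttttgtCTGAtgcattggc
SNORD12B: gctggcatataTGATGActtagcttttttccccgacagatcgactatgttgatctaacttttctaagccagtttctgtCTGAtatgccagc
SNORD99: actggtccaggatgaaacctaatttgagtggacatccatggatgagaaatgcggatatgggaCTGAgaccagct
SNORD100: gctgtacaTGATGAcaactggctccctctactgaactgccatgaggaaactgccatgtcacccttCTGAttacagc
SNORD104: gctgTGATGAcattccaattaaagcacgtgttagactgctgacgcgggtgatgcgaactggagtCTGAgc
SNORA71C: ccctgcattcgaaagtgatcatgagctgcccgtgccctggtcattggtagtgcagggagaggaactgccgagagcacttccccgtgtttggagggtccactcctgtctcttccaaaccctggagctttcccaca

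A sequence was found for 65 members. On the given strand, the D box letters stood near the end of 69.7% of the 33 snoRNA members with a sequence, against 48.0% of 1004 annotated snoRNAs and scaRNAs, and the C box letters near the start of 51.5% against 24.8%. The Sm-type letters, searched anywhere on the given strand, stood in 53.1% of 32 snRNA members against 27.2% of 1900 annotated snRNAs. RNU1-28P has the sequence of 6 further members (RNU1-1, RNU1-2, RNU1-3, RNU1-4, RNU1-27P and RNVU1-18), and 7 U6 members (RNU6-1, RNU6-2, RNU6-9, RNU6-3P, RNU6-4P, RNU6-5P and RNU6-6P) are likewise identical to each other. RNVU1-6, a variant U1, differs from RNU1-28P by 15 edits over 164 bases. RNU6-450P differs from RNU6-1 by 24 edits over 107 bases and ends in a run of 8 A. Runs of at least 8 A stood in 2 of the 32 snRNA members (RNU6-450P and RNU4-86P, with 18 A) and in none of the 33 snoRNA members, whose longest run was 5 A.

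Copies with 1 sequence have the same FPKM in every library, so the 80 members hold 65 distinct profiles, 23 for snRNAs and 42 for snoRNAs. Reads from identical or near-identical copies cannot be assigned to a locus, and the split between them is uncertain. Estimated counts could be paired with 65 members, and 59 of these (31 snRNAs with 19 distinct profiles, and 28 snoRNAs) had enough counts to be tested. The other 21 were 6 with too few counts and 15 whose transcripts were not paired. The counts were few: the median member had a mean of 16.3 counts per library among snRNAs and 9.17 among snoRNAs, and the highest value was 420, for RNU2-2P. A member with low counts in DMSO passed the filter only through the group where it was high, so counts of changed members below describe those tested.

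The libraries held 24732177 to 40388589 estimated counts. VIM, CD44 and S100A6 were high in all of them, with VIM at 2908 to 11067 FPKM, and GFAP stood at 1.58 to 6.39 FPKM. Some other RNAs that normally lack a polyA tail were also higher in FPKM in all 4 dBET6 libraries. RPPH1, the RNase P RNA, was at 272 to 346 FPKM there and at 30.8 to 75.0 in the other 8 libraries. RN7SL1 was at 2127 to 7886 against 405 to 1104, and TERC, the telomerase RNA, at 6.64 to 16.6 against 0.792 to 2.78. RMRP was not, at 168 in parental dBET6 replicate 1 against 235 in parental DMSO replicate 2. RNY1 was at 0 in parental and resistant dBET6 replicate 2. These FPKM values carry the library factor described below, with medians of 2.07 to 3.07 in the dBET6 libraries relative to parental DMSO replicate 1, which was not removed. Part of that factor is the lower depth of the dBET6 libraries. Mitochondrial mRNAs took 3.02% to 3.75% of counts in dBET6 libraries and 1.40% to 2.59% in the others. The part of these in the snRNA values was not tested. Among the dBET6 libraries, parental replicate 2 stood apart. RN7SK, the 7SK RNA, was at 3235 FPKM there against 638 in replicate 1, RN7SL1 at 7886 against 2127, and RMRP at 722 against 168. Results that rest on this library are given with and without it.

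Among all counts, the snRNA members took 10.5 and 9.62 of each 1e6 counts (counts per 1e6, CPM) in the parental DMSO libraries, 3.93 and 4.98 in parental JQ1, and 36.4 and 83.0 in parental dBET6. In the resistant line they took 3.57 and 4.58 in DMSO, 6.35 and 5.72 in JQ1, and 43.1 and 42.0 in dBET6. The dBET6 libraries were thus the highest of each line, without overlap. The mean that chose the members includes these libraries, so part of this follows from the choice. Over all snRNA genes, members included, the share was at least 43.8 CPM in each dBET6 library. It was 15.1 and 14.7 in parental DMSO and 11.3 and 10.8 in parental JQ1. In the resistant line it was 11.6 and 13.9 in DMSO and 15.1 and 12.7 in JQ1. Parental DMSO thus stood less far above parental JQ1 and resistant DMSO than among the members. The snoRNA members took 8.11 and 8.38 CPM in parental DMSO, 12.8 and 11.3 in JQ1, and 9.81 and 14.2 in dBET6. In the resistant line they took 9.58 and 10.1 in DMSO, 21.1 and 16.4 in JQ1, and 12.1 and 9.68 in dBET6. The snoRNA share was highest in the JQ1 libraries of the resistant line, and there the dBET6 libraries overlapped those in DMSO.

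**Figure D1:**
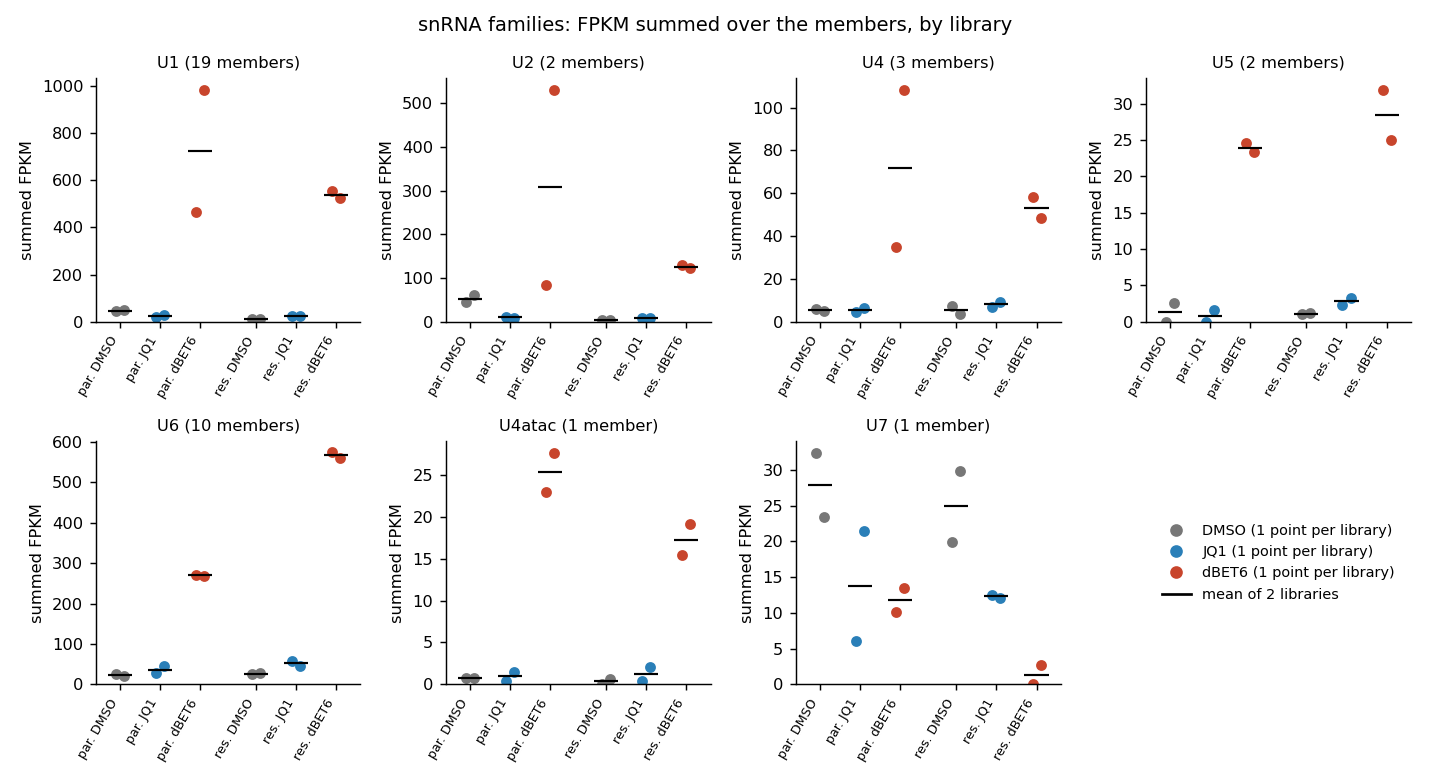
FPKM summed over the members of each snRNA family (y axis, linear, starting at 0) for each library, in the 6 groups of line and treatment; points are libraries, colours the treatment, and black lines the mean of 2 libraries. The dBET6 libraries lie above all others of their line in the U1, U2, U4, U5, U6 and U4atac families, while the U7 member is at 0 and 2.69 FPKM in the resistant dBET6 libraries.

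With dBET6, most tested snRNA members were higher in both lines, in the U1, U2, U4, U5, U6 and U4atac families. Part of this follows from the choice, since the mean that chose the members includes the dBET6 libraries. In parental cells 28 of the 31 snRNAs tested rose and 0 fell (16 of 19 distinct profiles), with a median log2 fold change of 3.40 against -0.01 over all genes. Of all 19093 genes tested, 37.0% were called higher and 39.3% lower in that comparison (edgeR's quasi-likelihood test, adjusted p below 0.05). In the resistant line 28 rose and 1 fell (16 and 1 distinct profiles), with a median of 4.53 against -0.06, where 35.7% of all genes were called higher and 39.5% lower. At an unadjusted p below 0.05, 1 snRNA was lower in parental cells, and DESeq2 called 0 lower. Of the 80 rows with the highest mean FPKM over the DMSO libraries alone, a choice that uses no compound library, 27 were snRNAs. In that set 16 of the 20 tested rose and 1 fell in parental cells, and 16 rose and 2 fell in the resistant line. The 7 U1 and the 7 U6 copies make up most of these: by distinct profile, 4 of 8 rose and 1 fell, and 4 rose and 2 fell. As a description of all 38 members, both dBET6 libraries exceeded both DMSO libraries in FPKM for 35 in parental and 34 in resistant cells (of all genes in the table, 32.0% and 30.3%), from which nothing is read. Their median difference in log2(FPKM + 1) was 2.96 and 3.74. RNVU1-6, RNU4-1, RNU4ATAC, RNU2-59P, RNU6-450P, the U5 members and most U1 variants ranked below the first 80 by DMSO mean, so their dBET6 values below are a description.

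The direction was the same under each scaling tried. The size of the log2 fold changes was not, but the median of all genes moved with it, so the distance from all genes was similar. The log2 fold changes are relative to TMM scaling. Scaled to total counts, 26 snRNAs were higher and 2 lower in parental cells (median 2.77) and 27 and 2 in resistant cells (median 3.50). Of all 19093 genes, 4440 and 3307 were then called higher and 10070 and 11381 lower, with medians of -0.65 and -1.135. Scaled to the mitochondrially encoded mRNAs, 24 were higher and 2 lower in each line, with medians of 1.68 and 2.55. Of all genes, 1772 and 1389 were then called higher and 13753 and 14150 lower, with medians of -1.78 and -2.12. In the deposited FPKM values 1 count is worth more in the dBET6 libraries, and this library factor includes their lower depth. Parental DMSO replicate 1 held 36486809 estimated counts, parental dBET6 29041636 and 24768861, and resistant dBET6 24732177 and 27679190. A count of RNVU1-6 was worth 0.277 FPKM in parental DMSO replicate 1, 0.609 and 0.714 in parental dBET6, and 0.945 and 0.769 in resistant dBET6. Among 5383 genes with many counts the same ratio relative to that DMSO library was 2.07, 2.26, 3.07 and 2.76 at the median, so FPKM folds follow that scaling. Without parental dBET6 replicate 2, 26 snRNAs were higher and 1 lower in parental cells, with a median of 3.38.

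U1 has the task of finding the 5′ end of an intron, and it was the largest family, with 19 members and 10 distinct profiles. Of 14 members tested, 13 rose with dBET6 in each line. RNVU1-6 stood at 1.94 and 1.98 FPKM in parental DMSO, 0.347 and 3.42 in JQ1, and 140 and 131 in dBET6. In the resistant line it stood at 0.999 and 2.38 in DMSO, 1.29 and 1.44 in JQ1, and 115 and 94.5 in dBET6. Its 4 dBET6 libraries lay far above the other 8, and the log2 fold change was 6.02 ± 0.34 (SE, n = 2 per group) in parental and 5.89 ± 0.35 in resistant cells. The 7 copies with the sequence of RNU1-28P stood each at 4.16 and 4.63 FPKM in parental DMSO, 1.04 and 1.95 in JQ1, and 18.9 and 79.3 in dBET6. In resistant cells they stood at 0.5 and 0.595 in DMSO, 1.29 and 1.44 in JQ1, and 29.3 and 27.7 in dBET6. The rise was 3.37 ± 0.48 in parental cells (edgeR adjusted p = 3.13e-06), and 2.05 ± 0.45 without replicate 2, while it was 5.53 ± 0.69 in resistant cells (edgeR adjusted p = 5.31e-07).

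Several U1 variants were seen almost only with dBET6. RNU1-143P, a U1 pseudogene by its symbol, had 0 counts in all DMSO and JQ1 libraries, 12 and 19 in parental dBET6, and 18 and 20 in resistant dBET6. Against a floor of 3 counts over the DMSO group, with TMM-scaled library sizes, it was at least 21.6-fold higher in parental and at least 38-fold higher in resistant cells. RNVU1-5, another variant U1, had 0 counts in parental DMSO and 27 and 30 with dBET6, at least 39.7-fold higher. Its resistant counts went from 0 and 1 counts to 35 and 33. RNU1-60P, whose counts were not paired, was listed at 0.883 and 0 FPKM in parental DMSO and at 81.3 and 94.1 with dBET6, and at 0 in both resistant DMSO libraries against 66.6 and 65.6.

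RNU1-77P went its own way and was chosen here after its values were seen. It had 29 and 25 counts in parental DMSO, 36 in parental dBET6 replicate 2, and 0 in the other 9 libraries, replicate 1 of parental dBET6 included. None of its comparisons passed the test.

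The U2 snRNA binds the branch point of the intron. RNU2-2P, on chromosome 11 and overlapping an exon of WDR74 in GENCODE release 29, had the highest mean FPKM of all members. It stood at 43.4 and 59.6 FPKM in parental DMSO, 7.49 and 8.09 in JQ1, and 60.1 and 481 in dBET6. The resistant libraries held 2.76 and 3.1 in DMSO, 7.28 and 7.79 in JQ1, and 79.2 and 67.9 in dBET6. In FPKM the dBET6 libraries were the highest of each line, but in parental cells replicate 1 was close to DMSO. By counts, parental dBET6 replicate 1 held 84 of 29041636, a lower share than parental DMSO, with 135 of 36486809 and 118 of 34619742. There the log2 fold change was 2.09 ± 0.69 (edgeR adjusted p = 0.0293), and 0.38 ± 0.27 (edgeR adjusted p = 0.222) without replicate 2. It was 1.49 ± 0.70 (edgeR adjusted p = 0.0952) under total counts. The resistant value was 4.72 ± 1.11 (edgeR adjusted p = 0.00752), and 2.67 ± 1.10 (edgeR adjusted p = 0.0578) when scaled to mitochondrial mRNAs. The host WDR74 fell with dBET6, by 1.17 ± 0.10 and 0.84 ± 0.10 on the log2 scale. The second member, RNU2-59P, rose from 3 and 1 counts to 34 and 44 in parental cells and from 1 and 1 to 43 and 55 in resistant cells.

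U4, U5 and U4atac snRNAs join the spliceosome as parts of tri-snRNPs, and each tested member was higher with dBET6 in both lines. RNU4-2 stood at 5.21 and 4.59 FPKM in parental DMSO and at 10.9 and 80 in dBET6, a log2 fold change of 3.25 ± 0.96 (edgeR adjusted p = 0.0179) that was 1.19 ± 0.63 (edgeR adjusted p = 0.103) without replicate 2. The resistant libraries held 3.11 and 1.24 in DMSO and 34.1 and 40 in dBET6 (4.01 ± 1.10, edgeR adjusted p = 0.0131), and scaled to mitochondrial mRNAs neither line was called (adjusted p = 0.127 and 0.102). RNU4-1, which differs from RNU4-2 by 4 edits over 141 bases, had 0 and 1 counts in parental DMSO, 4 and 9 in JQ1, and 24 and 25 in dBET6. The resistant libraries had 8 and 6 in DMSO, 7 and 5 in JQ1, and 12 and 8 in dBET6. The log2 fold change was 6.28 ± 0.80 in parental and 2.08 ± 0.61 in resistant cells, where it was 1.02 ± 0.60 under total counts. The minor-spliceosome RNU4ATAC stood at 0.721 and 0.75 FPKM in parental DMSO and 23 and 27.7 in dBET6, and at 0 and 0.686 in resistant DMSO and 15.4 and 19.2 in dBET6. Its log2 fold changes were 5.05 ± 0.65 and 5.48 ± 0.77. RNU5A-1 had 0 and 4 counts in parental DMSO and 24 and 19 in dBET6. RNU5D-1 had 0 counts in both resistant DMSO libraries and 13 and 12 in dBET6, at least 25-fold higher.

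The U6 snRNA forms part of the catalytic core of the spliceosome. Each of the 7 identical U6 copies stood at 3.13 and 1.88 FPKM in parental DMSO, 2.31 and 4.66 in JQ1, and 27 and 24.9 in dBET6. In resistant cells each stood at 2.52 and 3.03 in DMSO, 5.79 and 5.76 in JQ1, and 46.1 and 47.9 in dBET6. The libraries of a group lay close together and the dBET6 libraries did not overlap the others. The log2 fold changes were 3.40 ± 0.45 (edgeR adjusted p = 1.41e-07) in parental and 4.03 ± 0.42 (edgeR adjusted p = 1.39e-09) in resistant cells, and the parental value was 3.38 ± 0.52 without replicate 2. RNU6-450P had 0 counts in all 4 DMSO libraries, 3 and 0 in parental JQ1, and 72 and 78 in parental dBET6. In the resistant line it had 1 and 1 in JQ1 and 178 and 176 in dBET6. It was at least 104-fold higher in parental and at least 354-fold higher in resistant cells, against a floor of 3 counts over the DMSO group.

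The U7 member, RNU7-111P, is a pseudogene by its symbol. It stood at 32.4 and 23.5 FPKM in parental DMSO, 6.08 and 21.4 in JQ1, and 10.1 and 13.5 in dBET6. The resistant line had 20 and 29.9 FPKM in DMSO, 12.5 and 12.1 in JQ1, and 0 and 2.69 in dBET6. It was the 1 snRNA called lower with dBET6 in resistant cells, with a log2 fold change of -4.12 ± 0.96 (edgeR adjusted p = 0.000383). In parental cells the value was -1.07 ± 0.56 (edgeR adjusted p = 0.0837), and -1.70 ± 0.55 (edgeR adjusted p = 0.00958) under total counts.

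With JQ1, few snRNAs passed the test. In parental cells 3 of 31 rose and 1 fell, where 22.8% of all genes were called higher and 26.1% lower. Among those that rose were RNU4-1 (3.53 ± 1.03, edgeR adjusted p = 0.0057), from 0 and 1 counts to 4 and 9, and RNVU1-5, from 0 counts to 4 and 3. Their share is below that of all genes. The 1 that fell was RNU2-2P, from 135 and 118 counts to 16 and 9, by 3.14 ± 0.99 (edgeR adjusted p = 0.0386). Its host WDR74 fell by 0.68 ± 0.09 in the same comparison. The call on RNU2-2P was lost on leaving out any DMSO or JQ1 library of the parental line, with adjusted p-values of 0.0971 to 0.16, while the log2 fold change stayed between -3.48 and -2.91. Leaving out any DMSO, JQ1 or dBET6 library of the resistant line also ended the call, with adjusted p-values of 0.0654 to 0.0673. In resistant cells 1 snRNA rose, RNU1-59P, from 2 and 4 counts to 11 and 7, where 20.8% of all genes were called higher and 23.1% lower. The median log2 fold change of the 31 snRNAs was 1.12 there, against 0.01 over all genes, and 0 in parental cells. In resistant cells limma on log2(FPKM + 1) called 11 snRNAs higher and 0 lower, and DESeq2 called 0 in either direction.

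Without compound, 2 distinct snRNA profiles were lower in the resistant than in the parental line, RNU2-2P and the 7 identical U1 copies. Of 31 snRNAs tested, 8 were lower (2 of 19 distinct profiles) and 1 was higher (RNU4-1), where 21.2% of all genes were called lower and 17.4% higher, so the share is near that of all genes. Other U1 and U2 members were not called: RNVU1-6 had 4 and 8 counts in resistant against 7 and 6 in parental DMSO libraries, RNU1-59P 2 and 4 against 1 and 5, and RNU2-59P 1 and 1 against 3 and 1. RNU2-2P differed by -4.17 ± 1.07 on the log2 scale (edgeR adjusted p = 0.0232), with 7 and 8 counts in resistant against 135 and 118 in parental DMSO libraries. RNU1-28P differed by -2.88 ± 0.83 (edgeR adjusted p = 0.00961), with 2 and 2 counts against 15 and 14. The U6 copies were not called. RN7SK was at 241 and 351 FPKM in resistant and 344 and 432 in parental DMSO libraries, which overlapped, and its part in the difference was not tested. Leaving out 1 DMSO library at a time, the adjusted p of RNU2-2P lay between 0.0704 and 0.131. That of RNU1-28P was 0.0866 and 0.0564 without resistant DMSO replicate 1 and 2.

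**Figure D2:**
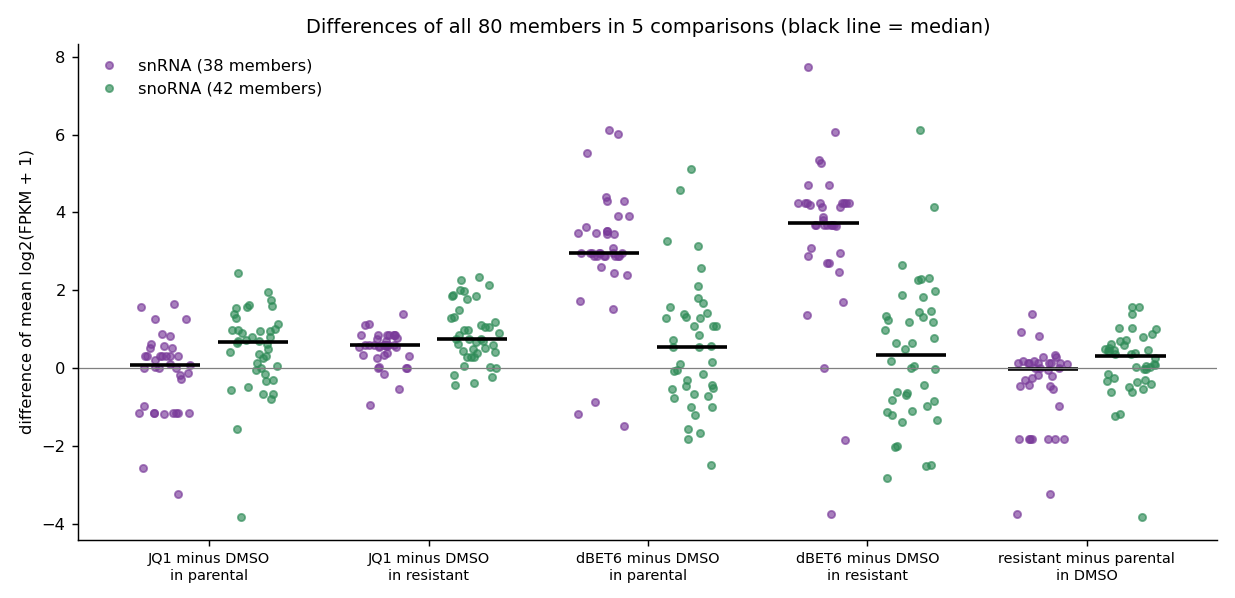
Difference of mean log2(FPKM + 1) (y axis) for each of the 38 snRNA and 42 snoRNA members in 5 comparisons, with points spread sideways for view and a black line at the median of each set. The snRNA medians stand at 2.96 and 3.74 with dBET6, at 0.61 with JQ1 in resistant cells, and near 0 in the other comparisons with parental DMSO. The snoRNAs spread to both sides of 0 with dBET6.

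With dBET6, more tested snoRNAs were called higher than lower, but that balance depended on the scaling. Of 28 tested, 12 rose and 1 fell in parental cells and 10 rose and 4 fell in resistant cells, with median log2 fold changes of 1.06 and 0.73. Their share called higher, 12 of 28 and 10 of 28, is near the 37.0% and 35.7% of all genes, while the 1 and 4 called lower compare with 39.3% and 39.5% of all genes. Of the 80 rows chosen by DMSO mean alone, 11 of 29 tested snoRNAs rose and 2 fell in parental cells, with 9 and 5 for the resistant line. Scaled to mitochondrial mRNAs, 2 rose and 11 fell in parental cells (median -0.67) and 1 rose and 12 fell in resistant cells (median -1.29). Of all 19093 genes, 1772 and 1389 were then called higher and 13753 and 14150 lower, with medians of -1.78 and -2.12. Under total counts, 6 rose and 2 fell in parental cells (median 0.43), and 4 rose and 9 fell in resistant cells (median -0.33). Of all genes, 4440 and 3307 were then called higher and 10070 and 11381 lower, with medians of -0.65 and -1.135. The snoRNA medians thus lay above those of all genes under each of these scalings. Without parental dBET6 replicate 2, 7 of 31 snoRNAs tested rose and 0 fell in parental cells. Over all 42 members, FPKM was higher without overlap for 17 and lower for 10 in parental cells, and for 21 and 14 in resistant cells. Of genes in the table, 32.0% and 30.3% were higher and 23.8% and 25.1% lower without overlap. The library factor given above, which includes depth, makes a count worth more FPKM in the dBET6 libraries.

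The SNORD63 pair, box C/D snoRNAs within the HSPA9 gene, were among the snoRNAs that rose most in both lines. SNORD63 (ENSG00000206989) stood at 6.16 and 8.88 FPKM in parental DMSO, 6.92 and 6.45 in JQ1, and 46.9 and 51.3 in dBET6. The resistant line had 7.13 and 7.65 in DMSO, 15.1 and 10.1 in JQ1, and 157 and 140 in dBET6. The replicates lay close together, and the rise was 2.79 ± 0.41 in parental (edgeR adjusted p = 6.34e-07) and 4.34 ± 0.37 in resistant cells (edgeR adjusted p = 2.01e-11). SNORD63 (ENSG00000222937) stood at 5.86 and 1.77 FPKM in parental DMSO and 42.4 and 39.8 in dBET6 (3.50 ± 0.53, edgeR adjusted p = 1.38e-06). In resistant cells it stood at 7.88 and 4.88 in DMSO and 54.8 and 36.2 in dBET6 (2.88 ± 0.49, edgeR adjusted p = 7.58e-06), and scaled to mitochondrial mRNAs the resistant value was 0.82 ± 0.56 (edgeR adjusted p = 0.164). HSPA9, a mitochondrial chaperone gene whose annotated exons overlap both, rose by 0.27 ± 0.08 and 0.44 ± 0.08, far less than either snoRNA. A member is called in an exon here if it overlaps an exon of any annotated transcript of the gene.

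Further snoRNAs that rose with dBET6 in both lines were SNORD17, SCARNA17, SNORA31 and U3, among others. SNORD17, in an intron of SNX5, stood at 12.7 and 21.3 FPKM in parental DMSO and 61.5 and 57.7 in dBET6 (2.0 ± 0.34, edgeR adjusted p = 6.73e-06). Small Cajal body RNAs (scaRNAs) guide modification of snRNAs, and SCARNA17 stood at 2.15 and 2.95 FPKM in parental DMSO and 6.65 and 13.5 in dBET6. In resistant cells SCARNA17 stood at 3.99 and 3.73 in DMSO and 25.8 and 20.8 in dBET6, and its rises were 2.02 ± 0.46 and 2.49 ± 0.40 in the 2 lines. Scaled to mitochondrial mRNAs, neither SCARNA17 (0.28 and 0.43, adjusted p = 0.615 and 0.361) nor parental SNORD17 (0.22, adjusted p = 0.607) was called by edgeR. U3, which is needed for early cleavage of ribosomal RNA, was listed for the copy ENSG00000200693 at 11.1 and 11.4 FPKM in resistant DMSO and 48.3 and 18.5 in dBET6 (1.65 ± 0.39, edgeR adjusted p = 0.000444). Without resistant dBET6 replicate 1 its value was 0.94 ± 0.49 (edgeR adjusted p = 0.0931), and scaled to mitochondrial mRNAs it was -0.41 ± 0.43. SNORA31 (ENSG00000253051), in an exon of TPT1, rose by 1.63 ± 0.54 and 2.10 ± 0.52, but was at -0.12 and 0.05 when scaled to mitochondrial mRNAs and was not called under total counts (adjusted p = 0.0911 and 0.0710). Without parental dBET6 replicate 2 its parental value was 1.41 ± 0.66 (edgeR adjusted p = 0.0662).

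The snoRNAs that fell with dBET6 were few and low in counts. SNORA71C, an H/ACA snoRNA in an intron of SNHG17, had 21 and 15 counts in parental DMSO and 3 and 1 in dBET6 (-2.07 ± 0.69, edgeR adjusted p = 0.00847). In resistant cells it had 21 and 12 in DMSO and 2 and 1 in dBET6 (-1.82 ± 0.77, edgeR adjusted p = 0.0344). With DESeq2 neither was called (adjusted p = 0.0756 and 0.174). The edgeR call was also lost without parental dBET6 replicate 2 (0.0811), and in the resistant line under RLE scaling (0.0572) and without DMSO replicate 1 (0.13), dBET6 replicate 1 (0.0503) or dBET6 replicate 2 (0.2). Its host SNHG17 fell by 1.42 ± 0.16 and 1.34 ± 0.17. In the resistant line SNORD14A, SNORD83A and SNORD12C fell as well, each to 0 or 1 counts in both dBET6 libraries. Their hosts RPS13, RPL3 and ZFAS1 rose in the same comparison, by 1.67 ± 0.10, 2.12 ± 0.09 and 2.07 ± 0.10 on the log2 scale.

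**Figure D3:**
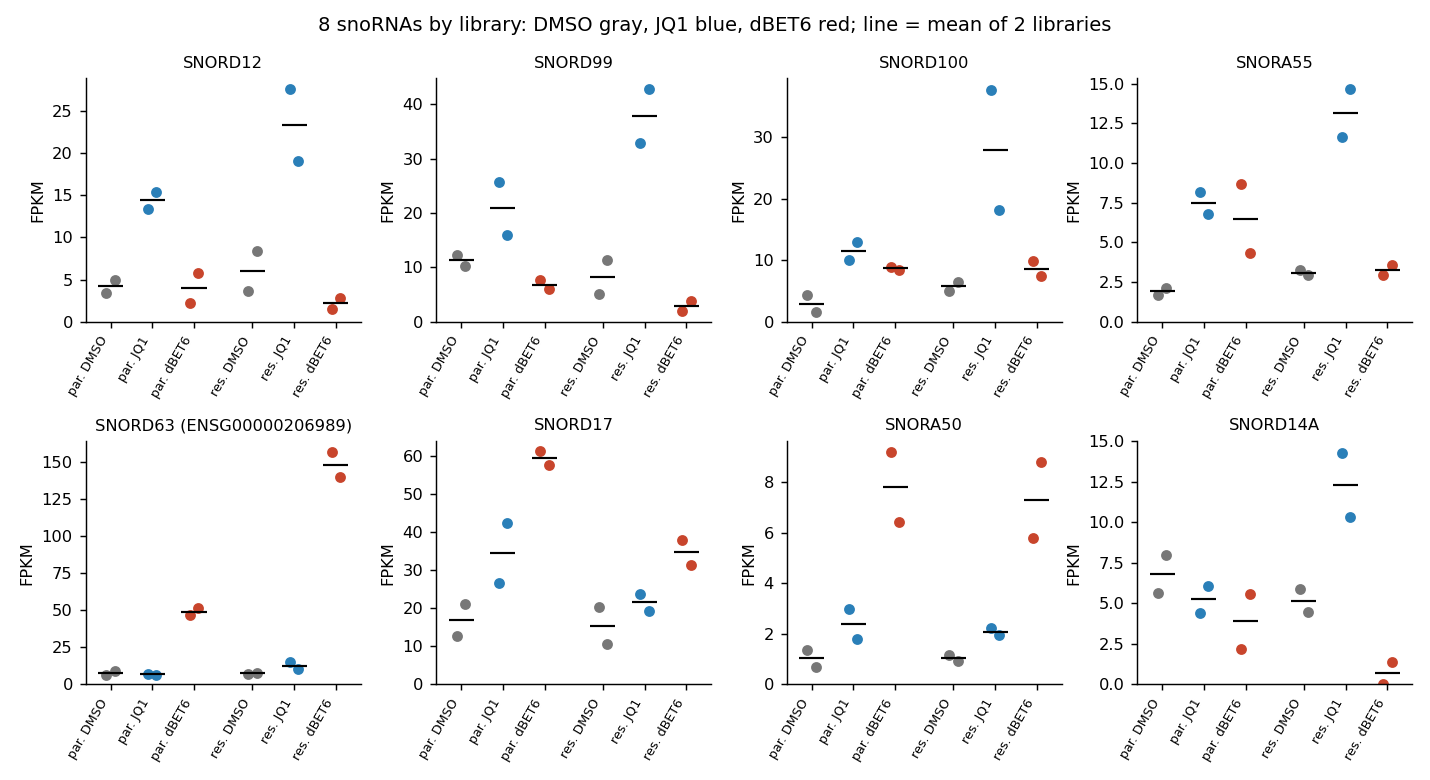
FPKM (y axis, linear, starting at 0) of 8 snoRNAs in each library, in the 6 groups of line and treatment; points are libraries and black lines the mean of 2 libraries. SNORD12, SNORD99, SNORD100 and SNORA55 are highest in resistant JQ1 libraries (SNORD12 at 27.6 and 19.1 FPKM), and the SNORD63 copy ENSG00000206989, SNORD17 and SNORA50 are highest with dBET6.

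With JQ1, snoRNAs were called higher and none lower by edgeR. In parental cells 6 of 28 were higher, near the 22.8% of all genes, and in resistant cells 11 of 28, beside 20.8% of all genes. Several of these 11 lie in the same host gene, so they are not independent. The 0 called lower stand beside 26.1% and 23.1% of all genes. Of the rows chosen by DMSO mean alone, 5 and 10 of 29 rose and 0 fell. By FPKM, 23 of all 42 snoRNA members were higher without overlap in parental cells and 6 lower, and 28 and 0 in the resistant line, where 21.1% and 22.0% of genes in the table were higher and 21.3% and 21.8% lower. For the 38 snRNAs these counts were 5 and 11, and 23 and 1. No snoRNA was called lower, nor was any at an unadjusted p below 0.05 or with DESeq2. DESeq2 called 1 and 5 higher, and the median log2 fold changes were 0.68 and 1.00, against 0.01 over all genes in each. Scaled to mitochondrial mRNAs, 6 members of both biotypes rose in resistant cells in place of 12. Of all 19093 genes, 595 were then called higher in place of 3978.

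Host genes of several of these snoRNAs are growth-linked transcripts with a 5′ terminal oligopyrimidine tract, such as the snoRNA host RNAs ZFAS1 and SNHG12 and the ribosomal protein gene RPS12. SNORD12, in an exon of ZFAS1, stood at 3.42 and 5 FPKM in parental DMSO and 13.3 and 15.4 in JQ1 (1.81 ± 0.51, edgeR adjusted p = 0.00436). The resistant line had 3.64 and 8.45 in DMSO and 27.6 and 19.1 in JQ1 (1.88 ± 0.45, edgeR adjusted p = 0.00114). Its neighbour SNORD12B had 2 and 7 counts in resistant DMSO and 18 and 25 in JQ1 (2.48 ± 0.66, edgeR adjusted p = 0.00312), and SNORD12C rose as well. The SNORD12B call was lost with DESeq2 (adjusted p = 0.0927), without resistant DMSO replicate 1 (1.75, edgeR adjusted p = 0.097) and without JQ1 replicate 2 (0.0513). ZFAS1 rose by 0.89 ± 0.10 and 1.17 ± 0.10 in the 2 lines.

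SNORD100, in an intron of RPS12, had 6 and 2 counts in parental DMSO and 14 and 13 in JQ1 (1.91 ± 0.62, edgeR adjusted p = 0.0123), a call lost without parental DMSO replicate 2 (adjusted p = 0.13) and with DESeq2 (0.0738). In resistant cells it had 8 and 9 in DMSO and 44 and 21 in JQ1 (2.20 ± 0.49, edgeR adjusted p = 0.000583), with 0.061 without JQ1 replicate 1. SNORD101 and SNORA33, in the same gene, rose in resistant cells too, while RPS12 rose by 0.48 ± 0.10 and 0.80 ± 0.10. SNORD99, in an intron of SNHG12, stood at 12.3 and 10.2 FPKM in parental DMSO and 25.8 and 16 in JQ1, and at 5.17 and 11.3 in resistant DMSO and 32.8 and 42.7 in JQ1. It rose by 2.12 ± 0.42 in resistant cells (edgeR adjusted p = 0.000165), where SNHG12 rose by 1.82 ± 0.10. In parental cells SNORD99 gave 0.95 ± 0.43 (edgeR adjusted p = 0.0713), and the difference between the lines was not called. SNORD104, in an intron of SNHG25, had 6 and 7 counts in resistant DMSO and 27 and 20 in JQ1 (2.11 ± 0.51, edgeR adjusted p = 0.00128).

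SNORA55, in an intron of the polyA-binding protein gene PABPC4, stood at 1.71 and 2.13 FPKM in parental DMSO and 8.19 and 6.81 in JQ1, and at 3.24 and 2.93 in resistant DMSO and 11.7 and 14.7 in JQ1. It rose by 1.90 ± 0.51 (edgeR adjusted p = 0.00286) and 2.03 ± 0.43 (edgeR adjusted p = 0.000322), and PABPC4 by 1.17 ± 0.08 and 1.30 ± 0.08. SNORA73B, in an intron of SNHG3, rose by 1.31 ± 0.47 and 1.18 ± 0.39, and SNORD17 by 0.94 ± 0.34 in parental cells. Both parental calls were lost under total counts (adjusted p = 0.0528 and 0.0536), with DESeq2 (0.134 and 0.114) and scaled to mitochondrial mRNAs (0.102 and 0.194). They were also lost without parental DMSO replicate 1 (0.244 and 0.193), that of SNORA73B without JQ1 replicate 1 (0.235) and that of SNORD17 without JQ1 replicate 2 (0.254). SNORD14E, in an intron of the chaperone gene HSPA8, rose from 3 and 5 counts to 19 and 12 in resistant cells (2.19 ± 0.78), a call lost without either resistant DMSO library or without JQ1 replicate 1 (adjusted p 0.0618 to 0.204). No snoRNA was called between the lines in DMSO by edgeR or DESeq2, while limma on log2(FPKM + 1) called 2 higher and 2 lower. At an unadjusted p below 0.05, 1 was higher and 2 were lower in the resistant line. By FPKM, 13 of the 42 snoRNA members were higher without overlap in the resistant line and 6 lower (3 and 12 of the 38 snRNAs), against 21.7% and 21.0% of genes.

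The snoRNAs were set beside their host genes, and the difference between the compounds was not tested. A host gene on the same strand was annotated and tested for 26 tested snoRNAs, in 21 genes. With JQ1, the host was also called higher for each snoRNA called higher, 6 of 6 in parental and 11 of 11 in resistant cells. Of the 26 pairs, 16 and 17 had a host called higher. The 11 are not independent, since some share a host. SNORD12, SNORD12B and SNORD12C lie in ZFAS1, and SNORD100, SNORD101 and SNORA33 in RPS12. With dBET6 in resistant cells, host and snoRNA were both called higher in 6 pairs, both lower in 1, and opposite in 5. In parental cells these counts were 7, 1 and 2. Pearson's r between the log2 fold changes of snoRNA and host, over 26 pairs that share libraries and in part hosts, was 0.47 and 0.58 with JQ1 in parental and resistant cells, and -0.11 and -0.23 with dBET6, given as a description.

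**Figure D4:**
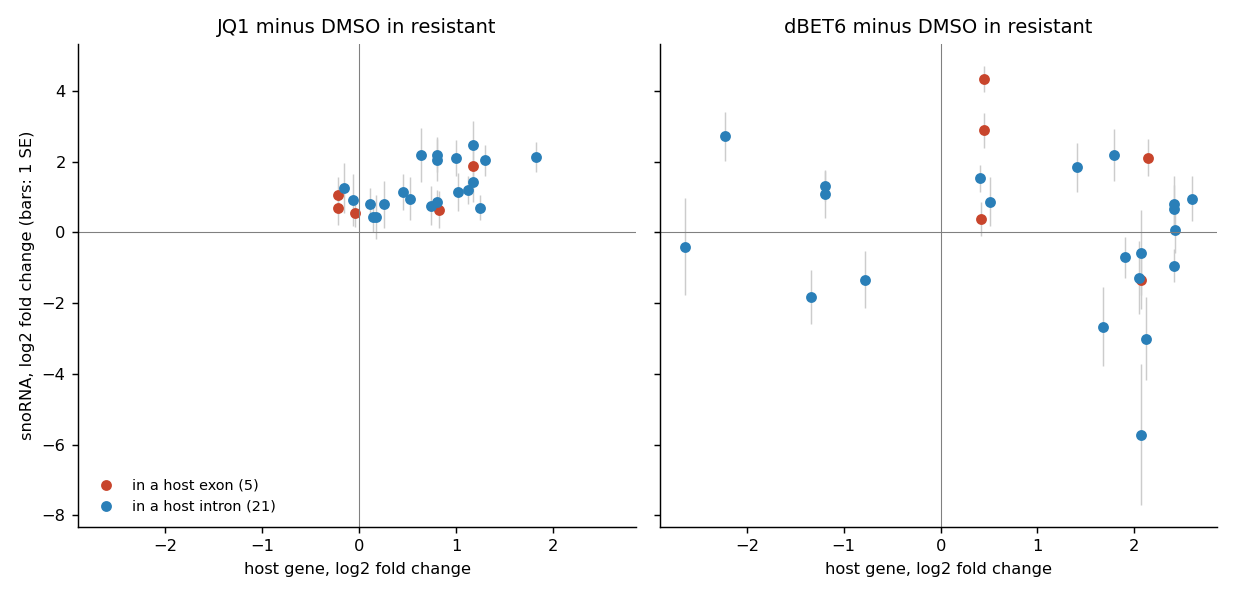
Log2 fold change of the snoRNA (y axis, bars 1 SE) against that of its host gene (x axis) for 26 pairs in resistant cells, with JQ1 (left) and dBET6 (right). Red points overlap an exon of any annotated transcript of the host, and blue points lie in introns only. With JQ1 most points lie in the upper right, and with dBET6 they lie on both sides of 0 on each axis, with 5 pairs called in opposite directions.

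The pairs that were opposite with dBET6 were of both kinds. SNORA50 lies in an intron of CNOT1, a deadenylase scaffold gene, and had 4 and 2 counts in parental DMSO and 14 and 9 in dBET6 (2.93 ± 0.67), while CNOT1 fell by 1.51 ± 0.09. In resistant cells SNORA50 gave 2.71 ± 0.70 and CNOT1 fell by 2.23 ± 0.09. SNORA50 ranked below the first 80 by DMSO mean, so its values are a description. SNORD94 rose by 2.51 ± 0.68 in parental cells as its host PTCD3 fell by 1.0 ± 0.09. SNORA5C rose by 1.32 ± 0.45 in resistant cells as TBRG4 fell by 1.19 ± 0.09. The other 3 opposite pairs in resistant cells were SNORD14A, SNORD83A and SNORD12C, with hosts that rose.

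Set against JQ1, most tested snRNA members were higher with dBET6 in each line. Part of this follows from the choice, since the mean that chose the members includes the dBET6 libraries. In parental cells 28 of 31 snRNAs were higher with dBET6 and 1 was lower, and in resistant cells 28 and 2, where 36.2% and 35.4% of all genes were called higher and 38.4% and 38.8% lower. By distinct profile these were 16 and 1 of 19, and 16 and 2. Of the rows chosen by DMSO mean alone, 16 of 20 tested snRNAs were higher and 2 lower in each line. By distinct profile, 4 of 8 of these were higher and 2 lower. Of 28 snoRNAs, 9 were higher and 6 lower in the parental line, with 7 and 13 for the resistant line. Scaled to total counts the snoRNA counts were 2 and 7 in parental and 2 and 16 in resistant cells, and scaled to mitochondrial mRNAs 2 and 12, and 1 and 17. All genes moved too: of 19093, 4626 and 9442, and 3713 and 10457, were called higher and lower by total counts. By mitochondrial mRNAs these were 1910 and 12713, and 2016 and 12112. These comparisons share libraries with those against DMSO. In resistant cells SNORD14A had 22 and 16 counts with JQ1 against 0 and 1 with dBET6, and SNORD12C 24 and 16 against 0 in both.

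The response of members to JQ1 was not called different between the lines for any of the 59 tested, where 6.5% of all genes were called. At an unadjusted p below 0.05, 9 were higher and 1 was lower, and DESeq2 called 1. For dBET6, 27.9% of all genes and 1 member were called: RNU4-1 rose less in resistant than in parental cells, by a difference of -4.20 ± 1.15 (edgeR adjusted p = 0.00692), with the limit on its choice given above. The value was -3.34 ± 1.27 (edgeR adjusted p = 0.0531) without parental DMSO replicate 1. At an unadjusted p below 0.05, 8 members were higher and 4 lower, and DESeq2 called 0. RNU6-450P and the U6 copies stood higher in resistant than in parental dBET6 libraries, but their differences were not called.

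The 15 members without paired counts are given by FPKM alone. The 6 copies of U13, a snoRNA of ribosomal RNA processing, summed to 10.0 and 9.0 FPKM in parental DMSO, 12.5 and 10.0 in JQ1, and 68.8 and 86.8 in dBET6. In resistant cells they summed to 17.4 and 20.6 in DMSO, 22.5 and 24.7 in JQ1, and 106 and 102 in dBET6. The copies were not alike: ENSG00000238791 was listed at 0 in parental DMSO and at 31.2 and 36.3 in dBET6, and at 0 and 0.451 in resistant DMSO and 80.5 and 83.3 in dBET6, whereas ENSG00000238369 stood at 8.25 and 11 in resistant DMSO and 1.3 and 0 in dBET6. U3 (ENSG00000252792) stood at 12 and 14.3 in parental DMSO, 49.9 in parental dBET6 replicate 2, and at most 0.882 in the other 9 libraries, the same 3 libraries in which RNU1-77P was counted. SNORD78 stood at 2.9 and 4.6 in resistant DMSO and 24.6 and 21 in JQ1, and was listed at 0 in both parental dBET6 libraries.

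mRNAs of the proteins that build and mature these RNAs mostly fell with dBET6, where 39.3% (parental) and 39.5% (resistant) of all genes were called lower and 37.0% and 35.7% higher. The SMN complex loads the Sm ring on snRNAs, and of its 14 listed members with cap-binding and export factors, 13 fell and 0 rose in each line, with median log2 fold changes of -1.76 and -2.16. DDX20, an SMN complex helicase, went from 26.6 to 1.98 mean CPM in parental cells (-3.76 ± 0.16) and from 34.7 to 2.53 in resistant cells. PHAX, the export adaptor of snRNAs, went from 40.8 to 4.89 in resistant cells. Of 22 tested snRNA promoter factors and Integrator subunits, 14 fell and 6 rose in the parental line, with 15 and 5 for the resistant line. INTS7, an Integrator subunit, fell by 2.11 ± 0.10 and 2.68 ± 0.11.

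Factors that trim or tail the 3′ ends of small RNAs, of which 26 were tested, fell in 19 cases and rose in 3 in parental cells, and in 20 and 3 in resistant cells, with medians of -1.0 and -1.86. EXOSC10, the nuclear exosome nuclease, went from 77.2 to 12.4 mean CPM in parental cells (-2.63 ± 0.11), and EXOSC3 from 37.6 to 7.21 and from 33.4 to 4.72 in the 2 lines. Of 27 tested Sm and snRNP proteins, 14 fell and 8 rose in the parental line, with 15 and 8 for the resistant line. SNRPD1, an Sm ring protein, fell by 2.22 ± 0.11 and 2.82 ± 0.12. The snoRNP assembly factors fell in 9 of 11 cases in each line, while of the 4 box C/D core proteins 2 rose and 2 fell in parental cells and 3 rose and 1 fell in resistant cells, NOP56 among the risers (0.81 ± 0.08 and 0.85 ± 0.08). Of the 4 H/ACA core proteins 1 rose and 2 fell in parental cells, and 2 and 2 in the resistant line. With JQ1 the corresponding medians of all these lists lay between -0.44 and 0.25.

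Noncoding snoRNA host genes rose in more cases than they fell with both compounds. Of 18 tested, 12 rose and 4 fell with dBET6 in the parental line, with 11 and 4 for the resistant line, and with JQ1 10 rose and 6 fell, and 14 and 2. Of all genes, 37.0% and 35.7% were called higher with dBET6 and 22.8% and 20.8% with JQ1. Those called lower were 39.3% and 39.5% with dBET6 and 26.1% and 23.1% with JQ1. SNHG3 went from 49.2 to 359 mean CPM with dBET6 in parental cells (2.87 ± 0.10), where its snoRNA SNORA73B gave 0.77 ± 0.56 (edgeR adjusted p = 0.216). ZFAS1 went from 61.6 to 258 in resistant cells (2.07 ± 0.10), where SNORD12 gave -1.34 ± 0.83 (edgeR adjusted p = 0.146).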

How the data were processed

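The deposited estimated counts per transcript were made by the authors with kallisto, per the submitters' processing notes and file headers, and are not normalized. The deposited TPM values in those files are kallisto's, per the file headers, and were not tested. The deposited FPKM table of genes carries a library factor that includes depth and whose further origin is unstated. The submitters' processing notes name kallisto, DESeq2 and build hg19. Tool versions and the annotation used were not given in the sources used here.

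Estimated counts were summed per gene through GENCODE release 29 (GRCh38), which paired 92.1% of 196354 transcripts, and rounded. For 61 of the 65 paired members the FPKM could be rebuilt within 1%. Genes kept by filterByExpr (19093) were tested with edgeR 4.0.16 (quasi-likelihood, TMM, R 4.3.3), all 12 libraries in 1 fit with 6 residual degrees of freedom, Benjamini-Hochberg adjusted within each comparison at 0.05; the functions were tested on simulated data. Log2(FPKM + 1) was compared with limma 3.58.1, and DESeq2 1.42.0 was an alternative. Ratios against 0 use a floor of 3 counts and cover counting error only. Named were the 5 snRNAs and 10 snoRNAs of highest mean FPKM, the largest separated changes with at least 10 counts in each library of the higher group (up to 3 snRNAs and 5 snoRNAs per direction), their hosts, the spliceosomal, U3, U7 and U13 members, and up to 3 genes per list. Alternatives were other scalings, filters, tools, member rules, the replicate number as a block and each library left out. Other names were chosen after their values were seen. The members, lists and tests were chosen with earlier results of these data known. All 12 libraries entered the tests. A result of 1 member is not reported here, and members not named are covered by the counts.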

Additional observations from a re-analysis of the deposited data

Results flagged for a closer look

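The response to dBET6 was called different between the lines for RNU4-1, by a test of that difference. The log2 fold change in resistant cells minus that in parental cells was -4.20 ± 1.15 (edgeR adjusted p = 0.00692). In parental cells the counts went from 0 and 1 in DMSO to 24 and 25, and in resistant cells from 8 and 6 to 12 and 8. With DESeq2 the difference was -4.51 ± 1.80 (adjusted p = 0.0516). Without parental DMSO replicate 1 it was -3.34. RNU4-1 ranked 119 by DMSO mean, below the first 80, so its dBET6 values are a description. It differs from RNU4-2 by 4 edits over 141 bases, so the split of reads between them is uncertain. Counts of RNU4-2 went from 16 and 13 to 17 and 113 in parental and from 11 and 4 to 36 and 46 in resistant cells.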

How the results depend on the processing

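Counts of members called (snRNAs and snoRNAs together) moved by over 1.5 times under these alternatives; the cause was not tested. With JQ1 in parental cells, 9 higher became 3 with DESeq2 and 5 with limma on log2(FPKM + 1) without a filter, and 1 lower became 10 when scaled to mitochondrial mRNAs, 8 without a filter, 9 when fitted to only the groups compared, 3 with limma at a pseudocount of 1 or 0.1, and 0 with limma without a filter. With dBET6 in parental cells, 40 higher became 26 by mitochondrial mRNAs or only the groups compared, and 1 lower became 4 by total counts, 13 by mitochondrial mRNAs, 2 without a filter, 0 with DESeq2, 5, 6 and 3 with limma (pseudocount 1, 0.1 and no filter), and 3 with members chosen by the DMSO mean or by CPM. With JQ1 in resistant cells, 12 higher became 6 by mitochondrial mRNAs, 5 with DESeq2 and 23 and 20 with limma (1 and 0.1), and 0 lower became 1 by total counts, mitochondrial mRNAs, only the groups compared and either other choice of members. With dBET6 in resistant cells, 38 higher became 25 by mitochondrial mRNAs or members by the DMSO mean, and 5 lower became 11 by total counts, 14 by mitochondrial mRNAs, 2 with DESeq2 or only the groups compared, 12 with limma (1 or 0.1) and 9 without a filter. Between the lines, 1 higher became 0 with DESeq2 or only the groups compared, 3 and 2 with limma (1 and 0.1) and 2 with members by CPM, and 8 lower became 2 with limma without a filter or with identical copies counted as 1, an alternative chosen after seeing the data. For the JQ1 response between lines, 0 became 1 with DESeq2 or only the groups compared. For the dBET6 response, 1 became 2 by RLE, mitochondrial mRNAs, limma without a filter or only the groups compared, 4 by total counts, 8 without a filter, 0 with DESeq2 or members by the DMSO mean, and 4 and 7 with limma (1 and 0.1). RLE moved the median of all genes by 0.109 and 0.107 (log2) with dBET6. The direction turned for SNORA31 (ENSG00000253051) with dBET6 in parental cells, at -0.12, and U3 (ENSG00000200693) in resistant cells, at -0.41, both by mitochondrial mRNAs.

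With the replicate number as a block, 8 members were lower with JQ1 in parental cells and 8 differed in the dBET6 response; the call of each named member was the same. The numbers did not pair the libraries: correlations of deviations lay between -0.0581 and 0.0609 over 15 pairs. Leaving out each library in turn, members higher and lower ranged from 4 to 9 and 0 to 9 with JQ1 in parental cells, 33 to 41 and 1 to 2 with dBET6 in parental cells, 5 to 12 and 0 to 1 with JQ1 in resistant cells, 33 to 39 and 3 to 6 with dBET6 in resistant cells, and 0 to 2 and 0 to 9 between lines. Those called between dBET6 and JQ1 ranged from 36 to 45 and 41 to 50, and between responses from 0 to 8 for JQ1 and 0 to 10 for dBET6. A mean of at least 10 CPM left no member to test. The counts, with a median mean of 9.17 per library among snoRNAs, limit these calls.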
